A study of Homo sapiens with 3 samples.

Results

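The p53 regulators MDM2 and MDM4 and the p53 target genes ZMAT3, RRM2B, FDXR, TIGAR, TRIAP1, PHLDA3, TP53I3 and BTG2 were examined in expression arrays of multidrug resistant and drug sensitive leukemia cells. Every probe set that the platform's table assigns to 1 of these 10 genes alone was taken, and each SupB15-MR array was set against the SupB15 array. This gave 27 probe sets of 8 genes, among 54675 probe sets on the array: 10 for MDM2, 6 for MDM4, 5 for ZMAT3, 2 for PHLDA3 and 1 each for RRM2B, TIGAR, TRIAP1 and TP53I3. FDXR and BTG2 have no probe set of their own in the table used here and were not analysed.

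The arrays were of SupB15-MR cells (n = 2, multiple drug resistant, biological rep 1 and rep 2) and of SupB15 cells (n = 1, drug sensitive). SupB15 is a B-cell precursor acute lymphoblastic leukemia line that carries the BCR-ABL1 fusion. The SupB15-MR subpopulations grew out of SupB15 cells that survived mitoxantrone in medium conditioned by bone marrow stromal cells and were then kept without drug. The label of rep 2 calls it SupB15-MR5. The paper describes its SupB15-MR profiles as those of 2 clones. The spread between rep 1 and rep 2 can thus hold a difference between clones. All cells were in normal medium when RNA was taken, and no drug was present in any group compared here. SupB15 has a single array, so that its own spread was not measured and the condition cannot be told apart from the culture or the array.

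p53 is a transcription factor that is stabilised after DNA damage, including the DNA breaks left by topoisomerase II poisons such as mitoxantrone, and that switches on genes of cell cycle arrest, repair, metabolism and apoptosis. MDM2 is a ubiquitin ligase that binds p53 and marks it for degradation, and its relative MDM4 binds p53 and blocks its activity as a transcription factor. MDM2 is also a p53 target, which closes a feedback loop. The gene has an upstream promoter and a p53-responsive promoter in its first intron, so that transcripts can start at either.

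The promoter of MDM2 is shown because MDM2 gave the largest rise among the members. Promoter windows from RefSeq (GRCh38.p14; 250 bases before to 50 bases after each start) were searched for the p53 response element, read as 2 abutting copies of the 10-base consensus of p53 with at most 3 mismatches in 20 bases; this element is its own reverse complement, so that both strands are covered. Of 13 windows of 8 of the 10 genes, 3 windows of MDM2 and FDXR held it, and of all 35116 windows 5.2%. No window of RRM2B or PHLDA3 was searched, so that the 13 windows do not cover every member. Of the 4 MDM2 windows, the 2 of the downstream start held 2 such elements and the 2 of the upstream start held none. The stretch at chr12:68808917-68808986, on the plus strand, lies 100 to 31 bases before the downstream start, with the elements in capitals:
MDM2 downstream promoter: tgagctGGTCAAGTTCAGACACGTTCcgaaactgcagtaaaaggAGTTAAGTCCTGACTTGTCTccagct
The first element has 2 mismatches to the consensus and the second 3, and 0.649% of all windows held an element with at most 2. A match describes these letters and does not show that p53 bound there in these cells.

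Values are RMA expression values on the log2 scale, and a difference of 1 is 2-fold. Array medians were 5.27 and 5.28 in SupB15-MR and 5.08 in SupB15, a shift of 0.19. Both SupB15-MR arrays held identical values for 42.7% of all probe sets (39.7% of those tested) and for 10 of the 27 members' probe sets (37%). Values also recurred between probe sets of the same array. Of the probe sets, 58.9% and 58.3% shared their value with another in SupB15-MR rep 1 and rep 2, against 35.4% in SupB15. The part of these shared values in the results was not tested. Among the control probe sets, 18S ribosomal RNA was higher by 6.57 to 7.84 in SupB15-MR, and ACTB read higher at its 3′ than at its 5′ end by 2.59 and 2.43 in SupB15-MR, against 0.80 in SupB15. GAPDH showed no such excess (-0.09 and -0.11 in SupB15-MR, against 0.10 in SupB15), and its probe sets differed by -1.98 to -1.12. Hybridization spikes were higher in SupB15-MR by medians of 2.82 and 2.34, and poly(A) spikes by 1.51 and 1.66. Their part in the results below was not tested. All 11 precursor B cell markers with a probe set lay above the filter value of 3.47 in every array, but 5 of them (VPREB1, CD24, IGLL1, BLNK and EBF1) were at least 2-fold lower in SupB15-MR and 1 (MME) at least 2-fold higher. The widest gap was that of VPREB1, at 4.22 and 3.94 in SupB15-MR, against 10.49 in SupB15. The summed levels of the 6 T cell, 6 myeloid and 8 stromal markers, on the log2 scale, were 7.04, 7.95 to 8.62 and 8.13 to 8.22 in SupB15-MR, against 7.32, 8.51 and 9.12 in SupB15. Of the myeloid markers, 2 (MPO and LYZ) were higher by 2-fold or more and 2 (CEBPA and CSF1R) lower: MPO was at 8.20 and 7.30 in SupB15-MR, against 6.18 in SupB15, and CEBPA at 4.11 and 3.99 in SupB15-MR, against 7.35 in SupB15. The part of these marker differences and of other cell types in the results was not tested.

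In SupB15-MR cells MDM2 rose on 4 of its 10 probe sets and TRIAP1 on its only one, TIGAR fell on its only one, and MDM4 rose on 1 probe set and fell on 3. All 27 probe sets passed the filter on low values. A probe set was called, and is said to have risen or fallen, at an adjusted p of at most 0.05 from limma, with Benjamini-Hochberg adjustment over all 46034 probe sets tested, and a difference of at least 2-fold. Of the 27, 6 rose (22.2%, against 13.1% of all probe sets tested), 4 fell (14.8%, against 9.71%) and 17 were not called; calls in either direction made up 22.8% of all. MDM2 and MDM4 held 8 of these 10 calls, and no probe set of ZMAT3, RRM2B, PHLDA3 or TP53I3 was called. Without a test, 7 probe sets were at least 2-fold higher in both SupB15-MR arrays (25.9%, against 18.3% of all) and 5 were 2-fold or more lower (18.5%, against 15%), 12 in all (44.4%, against 33.2%). The median difference of the 27 was 0.02 and that of all probe sets tested was 0. The spread behind every p came from the SupB15-MR arrays alone, on 1 residual degree of freedom, and takes no account of variation between SupB15 cultures; where their values are identical, the p is set by the fit's prior and is not printed below. With a prior from the probe sets that differ between the SupB15-MR arrays, 8 of the 27 rose (19.6% of all probe sets) and 5 fell (16.2%).

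**Figure D1:**
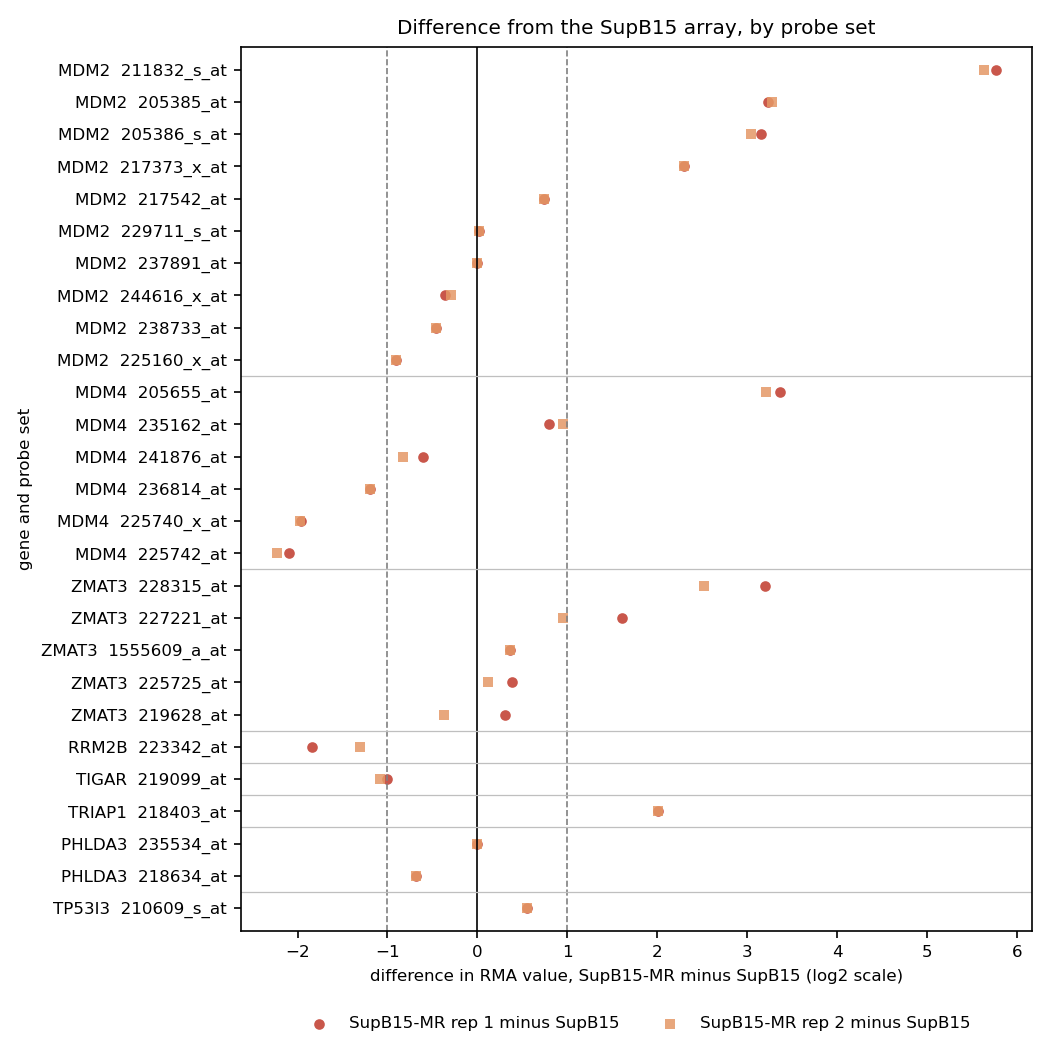
Difference in RMA value (log2 scale, horizontal axis) between each SupB15-MR array and the SupB15 array for the 27 probe sets, by gene (vertical axis); circles are rep 1, squares rep 2, and the dashed lines mark 2-fold. The 4 highest MDM2 probe sets lie between 2.30 and 5.77, the other 6 between -0.91 and 0.74, and MDM4 has probe sets beyond both dashed lines.

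MDM2 rose on 4 of its 10 probe sets, and the other 6 lay within 2-fold of SupB15. On 211832_s_at, MDM2 had 11.64 and 11.50 in SupB15-MR, against 5.87 in SupB15. Both SupB15-MR values were far above the SupB15 value, and the log2 fold change of 5.70 was 51.9-fold (limma, adjusted p = 0.0106, standard error 0.104); 99.8% of all probe sets tested had a lower difference. On 205385_at it had 10.08 and 10.12 in SupB15-MR, against 6.85 in SupB15, a log2 fold change of 3.25 (adjusted p = 0.00572 from limma). On 205386_s_at it had 10.40 and 10.30 in SupB15-MR, against 7.25 in SupB15, a log2 fold change of 3.10 (adjusted p = 0.0151 from limma). The values on 217373_x_at were 11.52 and 11.51 in SupB15-MR, against 9.22 in SupB15, a log2 fold change of 2.30 (adjusted p = 0.000688 from limma). On 217373_x_at the SupB15-MR values differed by only 0.00318, and the p rests on that small spread (standard error 0.00248). With the prior from probe sets that differ between the SupB15-MR arrays, its standard error was 0.201 and the call held. These 4 probe sets thus put both SupB15-MR arrays above SupB15 by differences that range from 4.92-fold to 51.9-fold.

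The other 6 MDM2 probe sets show no such rise. The brightest of all 10 in SupB15, 225160_x_at, had 10.35 in both SupB15-MR arrays and 11.25 in SupB15, a difference of -0.91, under 2-fold. The next brightest in SupB15, 229711_s_at, had 10.39 in both SupB15-MR arrays and 10.37 in SupB15. On 237891_at all 3 arrays held the same value, 6.82. The remaining differences were 0.74 on 217542_at, -0.33 on 244616_x_at and -0.47 on 238733_at. Probe sets of 1 gene share its RNA and are not replicates; they read different parts or forms of its transcripts, and which part each of these reads is not given in the sources used here. Probe sets whose names end in _x_at can also bind other transcripts, and 3 of the MDM2 probe sets do so end, 1 of those that rose and 2 of those that did not. The mean difference over all 10 was 1.34. The MDM2 differences spanned 6.60 from lowest to highest. Over the 482 genes with 6 or more probe sets tested, the median span was 3.39, and 94.4% of these genes had a smaller one than MDM2.

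MDM4, the MDM2 relative that inhibits p53 without degrading it, rose on 1 probe set and fell on 3. On 205655_at it had 9.39 and 9.25 in SupB15-MR, against 6.03 in SupB15, a log2 fold change of 3.29 (limma, adjusted p = 0.0205, standard error 0.111). This is the only MDM4 probe set that the platform's table pairs with a RefSeq mRNA. On 225742_at MDM4 had 6.42 and 6.29 in SupB15-MR, against 8.52 in SupB15, a log2 fold change of -2.16 (adjusted p = 0.0278 from limma). On 225740_x_at the values were 8.44 and 8.42 in SupB15-MR, against 10.40 in SupB15, a log2 fold change of -1.97 (adjusted p = 0.00422 from limma). The brightest MDM4 probe set in SupB15, 236814_at, fell as well: it had 9.83 in both SupB15-MR arrays, against 11.02 in SupB15, a difference of -1.19. Both SupB15-MR arrays thus lay on the same side of SupB15 on each of these 4 probe sets, but the side differed between probe sets. The other 2 were not called: 235162_at had differences of 0.79 and 0.95, and 241876_at had -0.61 and -0.83. The mean difference over all 6 was -0.31, and the direction of MDM4 depends on the probe set. A probe set at least 2-fold higher beside another at least 2-fold lower was found in 38.2% of the 482 genes with 6 or more probe sets tested, and MDM2 was not among them as deposited; with the arrays centred on their medians, MDM2 225160_x_at was at -1.10, past 2-fold. The MDM4 span of 5.45 was larger than that of 84.2% of these genes.

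**Figure D2:**
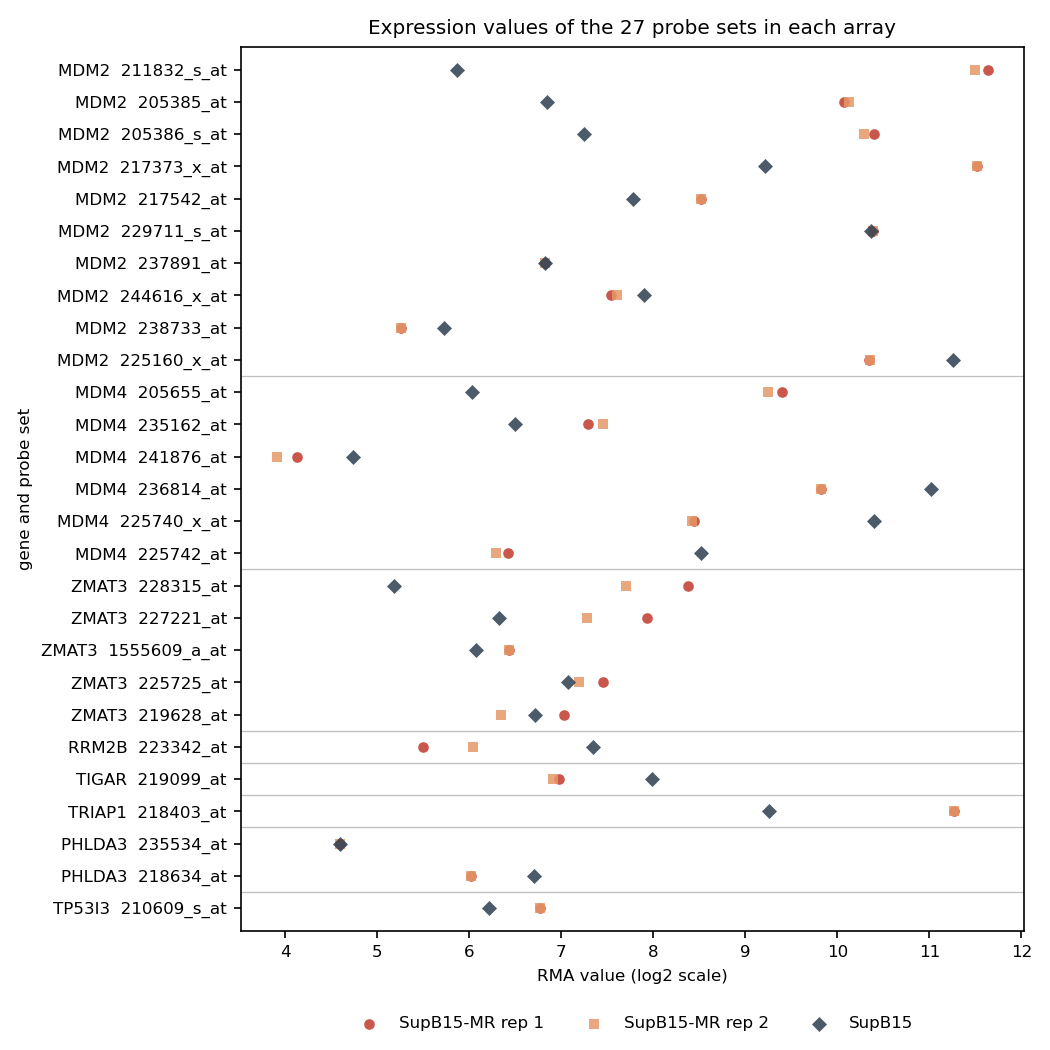
RMA value (log2 scale, horizontal axis) of each of the 27 probe sets in the SupB15-MR arrays (circles, rep 1; squares, rep 2) and in the SupB15 array (diamonds). On MDM2 211832_s_at the SupB15-MR arrays lie at 11.64 and 11.50 and SupB15 at 5.87, while on MDM2 229711_s_at both SupB15-MR arrays lie at 10.39 and SupB15 at 10.37.

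ZMAT3, a zinc finger protein that binds RNA and takes part in growth suppression by p53, was higher on some probe sets, without passing the test. On 228315_at it had 8.38 and 7.70 in SupB15-MR, against 5.19 in SupB15, a log2 fold change of 2.86 (limma, adjusted p = 0.109, standard error 0.510). On 227221_at it had 7.94 and 7.28 in SupB15-MR, against 6.33 in SupB15, a log2 fold change of 1.28 (adjusted p = 0.243 from limma). On both probe sets the SupB15-MR values lay above that of the single SupB15 array. This does not set ZMAT3 apart. Of the 27 members' probe sets, 26 had both SupB15-MR values on the same side of SupB15 or both equal to it. The other 3 probe sets had differences of 0.36 on 1555609_a_at, 0.25 on 225725_at and -0.03 on 219628_at, where rep 1 lay above SupB15 (7.03 against 6.72) and rep 2 below it (6.35). On 4 of the 5 ZMAT3 probe sets rep 1 exceeded rep 2, by 0.26 to 0.68, and 1555609_a_at had identical values. The gap of 0.67 on 228315_at was larger than that of 97.8% of all probe sets tested. With 1 array each, this difference between the SupB15-MR arrays has no test. With the prior from differing probe sets, 228315_at and 227221_at were called (adjusted p = 8.44e-09 and 0.000149 from limma).

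RRM2B, the p53-inducible small subunit of ribonucleotide reductase that supplies nucleotides for DNA repair, had 5.50 and 6.04 in SupB15-MR, against 7.34 in SupB15. Both SupB15-MR arrays were more than 2-fold lower, with a log2 fold change of -1.57 (limma, adjusted p = 0.159, standard error 0.406) and a gap of 0.54 between them. It passed with the prior from differing probe sets (adjusted p = 8.31e-06 from limma). TIGAR, a fructose bisphosphatase that lowers glycolysis and reactive oxygen species, fell: it had 6.98 and 6.91 in SupB15-MR, against 7.99 in SupB15, a log2 fold change of -1.04 (limma, adjusted p = 0.0320, standard error 0.0543). This fall of 2.06-fold lies just past the 2-fold minimum. In both genes the SupB15-MR values lay below the SupB15 value.

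TRIAP1, a small mitochondrial protein that takes part in phospholipid transport and protects cells from apoptosis, rose. It had 11.27 in both SupB15-MR arrays, against 9.26 in SupB15, a log2 fold change of 2.01, or 4.03-fold. PHLDA3, which competes with AKT for membrane lipids, was not called: 218634_at had 6.02 in both SupB15-MR arrays and 6.71 in SupB15, and 235534_at had 4.60 in all 3 arrays. TP53I3, a quinone oxidoreductase linked to p53-dependent apoptosis, had 6.77 in both SupB15-MR arrays and 6.21 in SupB15, a difference of 0.55, under 2-fold. The SupB15-MR arrays held identical values on each of these 4 probe sets, so that their spread there is 0 as deposited and gives no measure of error.

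With 1 probe set per gene, that of the highest mean value, MDM2 and TRIAP1 rose, MDM4 and TIGAR fell, and ZMAT3, RRM2B, PHLDA3 and TP53I3 were not called. The background over 17530 genes is 11.8% called higher and 9.05% lower. For MDM2 that probe set is 217373_x_at; the one brightest in SupB15 is 225160_x_at, on which MDM2 was not called. The mean takes in 2 SupB15-MR arrays and 1 SupB15 array, and so weighs SupB15-MR more. For the other 7 genes both choices gave the same probe set.

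**Figure D3:**
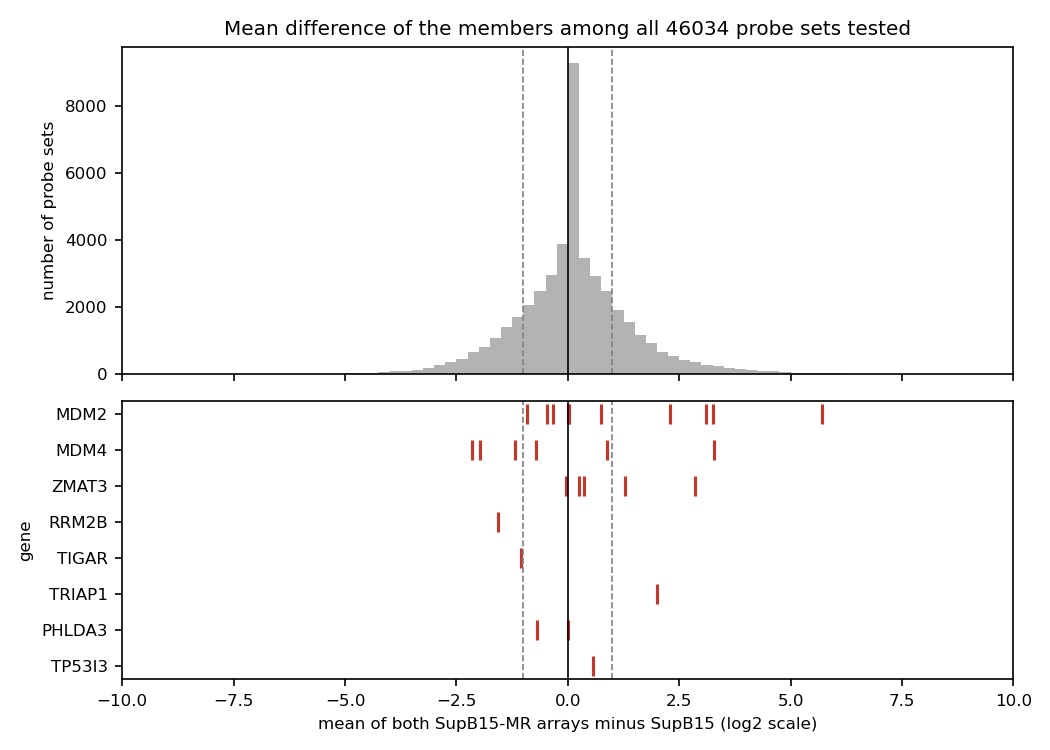
Upper panel, number of probe sets (vertical axis) by the mean difference between SupB15-MR and SupB15 (log2 scale, horizontal axis, bins of 0.25) over all 46034 probe sets tested; lower panel, the members' probe sets by gene on the same axis, with dashed lines at 2-fold. The MDM2 marks reach from -0.91 to 5.70 and the MDM4 marks from -2.16 to 3.29.

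Other p53 target genes were lower more often than higher in SupB15-MR. Of 42 listed, 39 have a probe set of their own and 38 were tested: 4 rose (10.5%, against 11.8% of all genes), 9 fell (23.7%, against 9.05%) and 25 were not called. Without a test, 6 were at least 2-fold higher in both arrays (16.2% of all genes) and 12 lower (13.9%). Their median difference was -0.51, against 0 over all genes tested. CDKN1A, the cell cycle inhibitor p21, had 10.59 and 10.51 in SupB15-MR, against 10.73 in SupB15, and was not called. The 4 that rose were TNFRSF10B, a death receptor for TRAIL (2.43), CES2, a carboxylesterase (1.46), BAX, a death effector (1.30), and POLH, a DNA polymerase that copies past ultraviolet damage (1.21). PERP, a desmosome protein, had 6.46 and 7.21 in SupB15-MR, against 3.61 in SupB15, without passing the test (adjusted p = 0.107 from limma). Its 5 probe sets had differences from 0 to 3.22. The largest falls were in TP53INP1, a stress protein that promotes p53 activity (-4.05), the plexin PLXNB2 (-2.57) and the ankyrin repeat gene ANKRA2 (-2.28). Other probe sets of some of these genes went the opposite way, down to -0.78 in CES2 and -0.91 in POLH, and up to 1.34 in TP53INP1 and 0.72 in PLXNB2. ABHD4, a lipase, had 5.59 and 5.93 in SupB15-MR, against 8.84 in SupB15, with an adjusted p = 0.0516 from limma. The count of falls was 14 with the arrays centred on their medians and 5 with all probe sets of a gene averaged.

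Of 24 genes that act on p53, 21 were tested, and 4 rose (19%, against 11.8% of all genes), 2 fell (9.5%, against 9.05%) and 15 were not called. Their median difference was 0.18. HIPK2, a kinase that phosphorylates p53, rose by 3.57, although its 10 probe sets ranged from -1.29 to that value. TP53BP1, a DNA break repair factor that binds p53, rose by 2.31, and USP7, which removes ubiquitin from MDM2 and p53, by 1.39. CHEK1, a checkpoint kinase, rose by 1.05, although its 4 probe sets ranged from -0.46 to 1.81. RPL11, a ribosomal protein that inhibits MDM2, had 11.38 and 11.46 in SupB15-MR, against 13.26 in SupB15, a log2 fold change of -1.84. WWP1, a ubiquitin ligase, had a log2 fold change of -1.43, although its 2 probe sets ranged from that value to 0.53. KAT5, an acetyltransferase that acts on p53, had -1.27 and did not pass the test (adjusted p = 0.116 from limma).

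**Figure D4:**
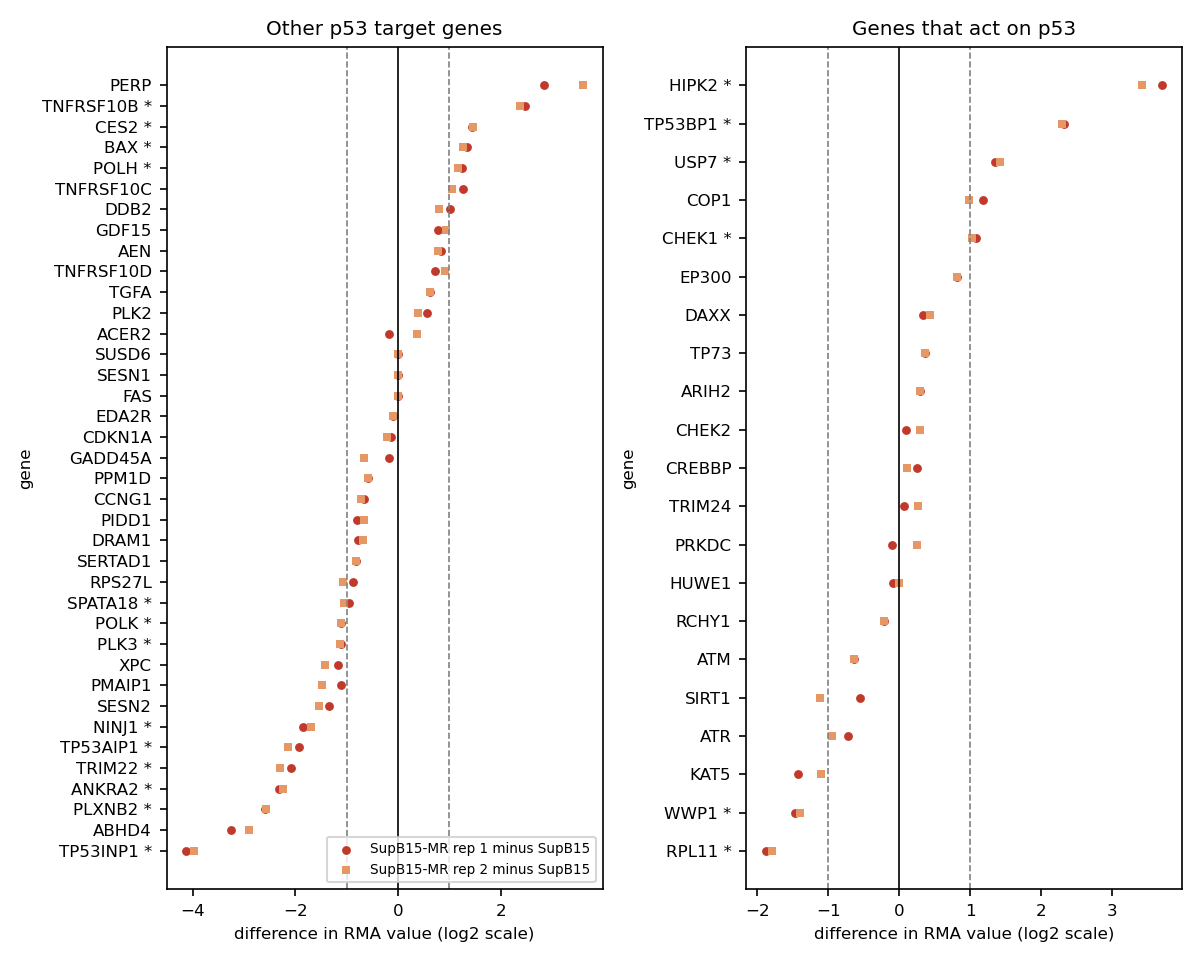
Difference in RMA value (log2 scale, horizontal axis) between each SupB15-MR array (circles, rep 1; squares, rep 2) and SupB15 for the other p53 target genes (left) and the genes that act on p53 (right), each on the probe set with the highest mean; dashed lines mark 2-fold and stars the called genes. In the left panel 4 genes with a star lie above 0 and 9 below, among 38.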

How the data were processed

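The authors prepared total RNA from each culture, made biotin-labelled cDNA from it (NuGEN Ovation) and used Affymetrix human genome arrays with 54675 probe sets. The authors deposited RMA values on the log2 scale for each probe set, made with apt-probeset-summarize (version not given in the sources used here). Precision is limited by the number of arrays.

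Probe sets were named from the platform's annotation, with symbols updated through RefSeq: 41097 have 1 gene, 1801 several and 11777 none. A probe set was dropped where none of the 3 arrays exceeded the 20th percentile of the values (3.47), which took out 8641, and 46034 were tested. The methods name an ANOVA after this filter; limma 3.58.1 in R 4.3.3 was used as the main test because the 3 arrays leave 1 residual degree of freedom, with the methods' thresholds (adjusted p of at most 0.05, 2-fold). The prior had an SD of 0.00102 on 0.313 degrees of freedom over all probe sets, and 0.169 on 17.1 over those that differ between the SupB15-MR arrays. All 27 probe sets of the members are given; from each other list up to 4 genes higher and 4 lower with the largest differences among those at least 2-fold apart in both arrays were to be named, with CDKN1A. POLH was added after its value was seen. The members, lists and rules were chosen with earlier results of these data known. Medians, quantile normalization, other filters, other folds, other probe sets per gene and each SupB15-MR array left out were alternatives.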

Additional observations from a re-analysis of the deposited data

How the results depend on the processing

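SupB15 had 1 array, so no setting could leave it out, and with 1 SupB15-MR array left there is a value and no test. Without each SupB15-MR array in turn, the members' probe sets that were higher by 2-fold or more numbered 7 to 8, and those lower 5. A 1-way ANOVA of these arrays tests 27745 probe sets because the others have no residual spread. It called 0 of all 27745 higher and 0 lower, and 6778 of them passed by unadjusted p and fold. The 0 calls that follow thus hold for every probe set and do not set the members apart. Of the members' probe sets, 0 were called higher and 0 lower (5 and 3 of 17 tested by unadjusted p and fold). Of the members' genes 0 and 0 were called (1 and 1 of 4 by unadjusted p and fold). The counts were 0 and 0 for the other p53 targets (4 and 6 of 31) and for the genes that act on p53 (4 and 2 of 17). With median centring 14 other p53 targets were lower in place of 9, MDM2 225160_x_at passed (-1.10, adjusted p = 0.00595 from limma), and the split of all calls moved to 6552 higher and 7762 lower, against 6021 and 4470 as deposited; quantile normalization of the 3 arrays gave 6492 and 6443. At 1.5-fold, 8 of the members' probe sets were lower in both SupB15-MR arrays in place of 5. On the probe set brightest in SupB15, 1 member gene was called higher in place of 2, 2 other targets in place of 4 and 2 genes that act on p53 in place of 4. With probe sets averaged, 1 member gene was called lower in place of 2, 5 other targets in place of 9 and 1 gene that acts on p53 in place of 2. Leaving out probe sets whose names end in _x_at, chosen after seeing the data, gave 5 higher and 3 lower. No called probe set of the members changed direction or lost its call under median centring, quantile normalization or the other prior. No paired analysis was possible because SupB15 has 1 array and the groups share fewer than 2 replicate numbers.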
